A study of Mus musculus with 12 samples.

Results

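The thin filament of heart muscle carries the calcium switch of contraction, and 9 genes that encode its troponin and tropomyosin subunits are described here out of 38293 genes counted in each of 2 tables. The members were Tnnt1, Tnnt2, Tnni1, Tnni3, Tnnc1, Tpm1, Tpm2, Tpm3 and Tpm4, and all 9 symbols were found among the counted genes. They were taken by name from the families, with earlier results of these data known. RNA was sequenced from the left ventricle of mice in 4 groups of 3 animals. In the first table, wild-type C57Bl/6J hearts after sham surgery (WT sham, no day given in the labels) were set against wild-type hearts 14 days after ischaemia–reperfusion (WT IR), in which the left anterior descending artery had been tied for 1 h and released. In the second, hearts labelled as carrying the Zeb2 transgene (Zeb2 cTg IR) were set against wild-type littermates (Zeb2 WT IR). Both groups are labelled C57Bl/6J, had the same injury and were collected on day 14. The transgene was placed in the Rosa26 locus behind a floxed stop and switched on by Cre from the Myh6 promoter, so it was meant for cardiomyocytes alone, whereas the RNA came from whole tissue. The methods give an age of 8 to 9 weeks, and name male mice in one place and both sexes in another. The sources differ on the tissue: the design text names the infarct with its border, and the methods name the remote zone.

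Troponin is a complex of 3 kinds of subunit. Troponin C binds calcium, troponin I holds actin and myosin apart when calcium is low, and troponin T ties the complex to tropomyosin, a coiled rod that lies along actin and covers or frees the sites for myosin. Each kind is made from several genes: the adult heart uses Tnnt2, Tnni3 and Tnnc1, the slow skeletal genes Tnnt1 and Tnni1 belong to slow muscle (Tnni1 also to the foetal heart), Tpm1 encodes the main cardiac tropomyosin, and Tpm3 and Tpm4 are also used for the actin cytoskeleton of non-muscle cells.

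Short stretches of promoter are shown first because the transgene encodes a factor that reads the E-box letters CACCTG. The windows, from RefSeq on GRCm38.p6, run from 250 bases before to 50 bases after an annotated start, and all 9 members had at least 1. On either strand, CACCTG was found in windows of 3 of the 9 members (Tnnt1, Tnnt2, Tnni1), and 22.6% of 27025 genes had it in at least 1 of their windows. The 9 members had 12 windows, as 3 of them had 2 each. The M-CAT core CATTCC, read by TEAD factors, was found for Tnnt2, Tnnc1 and Tpm1 (16.6% of all genes). The GATA letters AGATAA were found for Tnnt2 and Tpm3 (12.7%), and TATAAA for Tnnt1 (15.7%), 30 bases before its start. Capitals mark the motif, read on the strand of the gene, so CAGGTG and GGAATG are the same motifs on the opposite strand.
Tnnt2 E-box, chr1:135836231-135836254, plus strand: tgtgccgggCACCTGccaaaatag
Tnnt1 E-box, chr7:4516119-4516142, minus strand: agccgatgaCAGGTGttggacccc
Tnnt2 M-CAT, chr1:135836298-135836321, plus strand: cctgctgcaCATTCCtccctccgc
Tnnc1 M-CAT, chr14:31208245-31208268, plus strand: gctgggctgGGAATGtagcaggag
Tpm1 M-CAT, chr9:67049255-67049278, minus strand: ctgtcctaaGGAATGcggtcgccc
These matches describe letters in the windows. No binding was measured in the files used here.

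The libraries held 20215781 to 36816818 counts, of which 60.6% to 73.5% fell on mitochondrial genes, so the nuclear depth was 5706340 to 11618213 counts. Levels are given as CPM, counts relative to the TMM-scaled library total, each table scaled on its own, and 1 CPM stood for 17.2 to 37.8 counts. Cardiomyocyte markers were plainly present in every library, at summed levels of 49460 to 74236 CPM over 18 genes, and all 18 had at least 10 counts in each. Zeb2 itself checks the label of the transgenic group, and it was not higher there: 57.03 ± 1.59 CPM in the libraries under the label Zeb2 cTg IR against 59.8 ± 6.43 CPM in Zeb2 WT IR (SD, n = 3 each; log2 fold change −0.07, adjusted p = 0.750). Whether transcripts of the transgene are counted under Zeb2 was not tested, so directions in the second table are stated for the libraries as labelled. In the first table, Zeb2 was 71.5 ± 11.2 CPM in WT IR against 51.6 ± 3.73 CPM in WT sham (log2 fold change 0.47, adjusted p = 0.0219).

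4 members dominated, and levels between genes are compared per kb of the longest coding transcript. In WT sham, Tnni3 stood at 1503 ± 36.3 CPM per kb, Tpm1 at 932 ± 0.698, Tnnt2 at 797 ± 29.0 and Tnnc1 at 605 ± 57.6 (SD, n = 3), and no neighbours in this order overlapped. Far below were Tpm4 at 17.9 ± 0.448, Tpm3 at 4.30 ± 0.154, Tnnt1 at 3.28 ± 0.813 and Tpm2 at 1.65 ± 0.376 CPM per kb, again with no overlap between neighbours, the closest being Tpm3 and Tnnt1 (4.17 and 4.12 CPM per kb in their nearest libraries). In WT IR the order of the top 4 was the same, at 1049 ± 219 for Tnni3, 748 ± 97.3 for Tpm1, 683 ± 82.9 for Tnnt2 and 530 ± 43.8 for Tnnc1, but the libraries of Tpm1 and Tnnt2 overlapped. In the second table Tnni3 was not first: Zeb2 WT IR had 775 ± 41.4 for Tpm1, 641 ± 41.3 for Tnnt2, 623 ± 88.6 for Tnni3 and 465 ± 48.1 CPM per kb for Tnnc1, with Tnnt2 and Tnni3 overlapping. The tables were scaled separately, which does not change the order of genes within a library. Per kb, Tnni3 to Tnnt2 was 144% to 167% in WT IR and 86.8% to 109% in Zeb2 WT IR. Why these 2 wild-type injured groups differed was not tested. In the libraries under the label Zeb2 cTg IR, Tnnt2 (1024 ± 152), Tpm1 (1011 ± 164) and Tnni3 (948 ± 302) overlapped one another, and Tnnc1 stood at 495 ± 77.8 CPM per kb. This order depends on the length used: with the summed length of all annotated exons, chosen after seeing the data, Tnnt2 in WT sham was 123 CPM per kb, below Tnni3 (664), Tnnc1 (419) and Tpm1 (415).

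**Figure D1:**
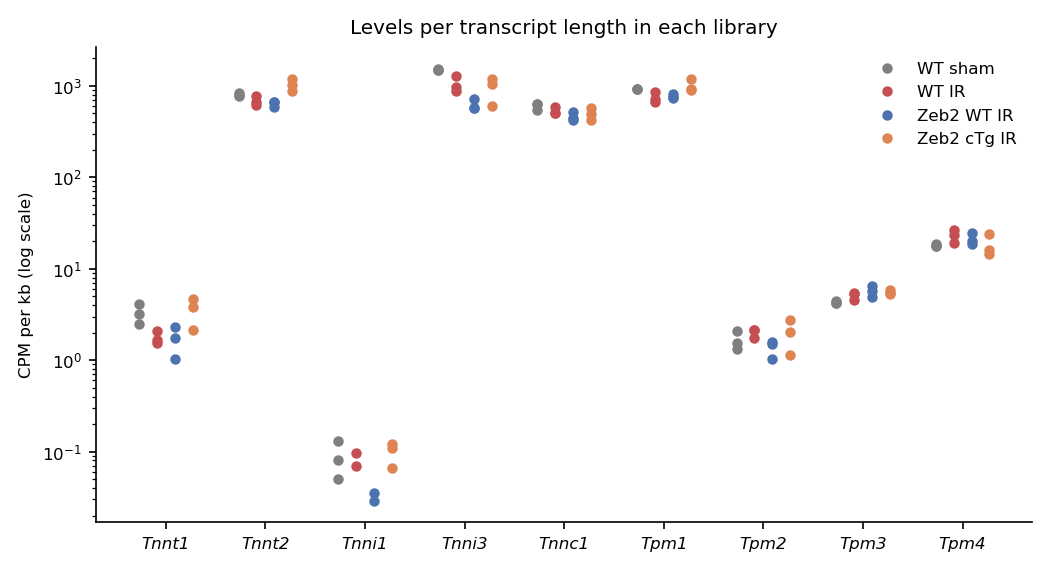
Level of each member in each of the 12 libraries, in CPM per kb of the longest coding transcript on a log axis, coloured by group, with counts of 0 left out. Tnni3, Tpm1, Tnnt2 and Tnnc1 lie at 422 CPM per kb or above in every library, Tpm4 lies between 14.4 and 26.4, and the others lie lower.

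Within their families the cardiac genes held nearly all of the signal in all groups. Per kb, Tnnt2 held 99.5% to 99.8% of the sum of Tnnt1 and Tnnt2. Tpm1 held 95.2% to 98.1% of the sum of the 4 tropomyosin genes, and Tpm4 held 1.33% to 3.73%. Tnni1 had 0 to 5 counts in any library (0 to 4 in the first table), which is at or near the floor of 3 counts, so it entered neither test and no fold is given. The fast skeletal genes Tnnt3, Tnni2 and Tnnc2 averaged at most 0.278 CPM in any group, and none was tested.

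In wild-type hearts 14 days after injury, 3 of the 8 members tested passed the threshold of 0.05 on the adjusted p: Tnnt1 and Tnni3 were lower and Tpm4 was higher in WT IR than in WT sham. Among all 13756 genes tested the share called was 20.8%, with 11.0% higher and 9.74% lower. The groups did not overlap for 5 of the 8 members, against 39.8% of all genes. The median log2 fold change of the 8 was −0.21, and that of all genes was 0.01. In this and every bulk comparison, fewer cardiomyocytes and less RNA per cardiomyocyte cannot be told apart. Cardiomyocyte markers summed to 64196 to 70396 CPM in WT sham and 49460 to 63873 CPM in WT IR, with 5 of 18 called lower, and fibroblast markers to 531 to 978 and 1923 to 4831 CPM, with 9 of 10 called higher. Macrophage markers summed to 115 to 128 CPM in WT sham and 178 to 344 CPM in WT IR, with 6 of 7 called higher. Smooth muscle markers summed to 102 to 115 and 74.0 to 93.9 CPM, with 1 of 7 tested called higher and 2 lower. Atrial markers summed to 17.6 to 41.0 and 233 to 457 CPM, with 2 of 3 tested called higher (Nppa and Dkk3). Nearly all of the atrial sum was Nppa, at 25.9 ± 11.8 CPM in WT sham and 311 ± 106 CPM in WT IR. Myl4 averaged 0.601 and 0.874 CPM, and Myl7 0.0869 and 0.0301 CPM. The part of these marker levels in the members' values was not tested.

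Of the troponin T genes, the rare one passed and the cardiac one did not. Tnnt1 (ENSMUSG00000064179, chromosome 7, 4504570 to 4516382, minus strand) is the slow skeletal form, and it lies 1923 bases downstream of Tnni3 on the same strand. Its counts were 70, 111 and 75 in WT sham and 70, 62 and 47 in WT IR, or 2.65, 3.40 and 4.37 CPM against 2.19, 1.64 and 1.75 CPM. Every sham library was above every injured one, with a log2 fold change of −0.88 ± 0.21 (SE, adjusted p = 0.0188, 95% interval −1.34 to −0.41). The call was lost without WT sham 2 (adjusted p = 0.0811), WT sham 3 (0.0595) or WT IR 2 (0.0835), and when scaled to cardiomyocyte markers (−0.61, adjusted p = 0.0627). Tnnt2 (ENSMUSG00000026414, chromosome 1, 135836354 to 135852260, plus strand), the cardiac form, was at 921, 956 and 990.4 CPM in WT sham and 930.1, 789.8 and 738 CPM in WT IR. The groups overlapped through WT IR 1, and the difference did not pass (log2 fold change −0.22 ± 0.12, adjusted p = 0.202, interval −0.49 to 0.04). Scaled to cardiomyocyte markers, its sign turned, to 0.06. Without WT IR 1, Tnnt2 was called lower (−0.33, adjusted p = 0.0191).

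Troponin I fell. Tnni3 (ENSMUSG00000035458, chromosome 7, 4518305 to 4524229, minus strand) is the cardiac form and a target of protein kinase A. It was at 1344, 1359.5 and 1408 CPM in WT sham and at 1182, 882 and 805 CPM in WT IR. All injured libraries were lower, WT IR 1 least so, and the log2 fold change was −0.52 ± 0.15 (adjusted p = 0.0373, interval −0.86 to −0.18). Without WT IR 1 the fall was 0.70 on the log2 scale (adjusted p = 0.000237), and leaving out any other single library ended the call, with adjusted p between 0.0731 and 0.152. It also ended when scaled to cardiomyocyte markers (−0.25, adjusted p = 0.0629) and with GC correction, a fit that removes the trend of counts with GC content (−0.48, adjusted p = 0.0616). Troponin C, from Tnnc1 (ENSMUSG00000091898, chromosome 14, 31208312 to 31211729, plus strand), is shared by heart and slow muscle. It was at 459.5, 461 and 388 CPM in WT sham and at 418, 362 and 366 CPM in WT IR. WT sham 3 and WT IR 1 crossed, and the log2 fold change of −0.19 ± 0.11 did not pass (adjusted p = 0.233, interval −0.43 to 0.05) and was 0.10 when scaled to cardiomyocyte markers.

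Among the tropomyosins, the 3 rare genes had positive and the cardiac gene a negative fold change, and 1 of the 4 passed. Tpm4 (ENSMUSG00000031799, chromosome 8, 72134975 to 72153142, plus strand), a form of the cytoskeleton, was at 39.2, 37.5 and 37.7 CPM in WT sham and at 41.2, 50.2 and 56.1 CPM in WT IR. Each injured library was higher, with a log2 fold change of 0.37 ± 0.11 (adjusted p = 0.0404, interval 0.12 to 0.61). Without WT IR 1 the change was 0.47 (adjusted p = 0.000524), and without any other single library it was not called (adjusted p between 0.0978 and 0.157). With GC correction it was 0.24 and not called (adjusted p = 0.116). An antisense gene overlaps Tpm4 over 134 exonic bases and held at most 1 count.

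Tpm1 (ENSMUSG00000032366, chromosome 9, 67022590 to 67049406, minus strand), the main cardiac rod, was at 2694, 2690.4 and 2694 CPM in WT sham and at 2481, 2062 and 1947 CPM in WT IR. The sham libraries lay within an SD of 2.02 CPM, the injured libraries were all lower with an SD of 281 CPM, and the log2 fold change was −0.32 ± 0.13 (adjusted p = 0.124, interval −0.62 to −0.01). It passed with DESeq2 (adjusted p = 0.0273) and without WT IR 1 (0.00847). Scaled to cardiomyocyte markers, Tpm1 was −0.035 (adjusted p = 0.720). Tpm3 (ENSMUSG00000027940, chromosome 3, 90072649 to 90100902, plus strand) was at 9.99, 9.54 and 9.31 CPM in WT sham and at 10.2, 11.9 and 12.2 CPM in WT IR, with no overlap (log2 fold change 0.24 ± 0.10, adjusted p = 0.102, interval 0.03 to 0.46). Without WT IR 1 it was called higher (0.32, adjusted p = 0.0183). The gene Tpm3-rs7 matches Tpm3 over 2108 bases at 99.1% identity, so reads can be shared: it held 59 to 137 counts per library in this table but 0 to 3 in the second, and with both added the log2 fold change was 0.22 (adjusted p = 0.137, chosen after seeing the data). Tpm2 (ENSMUSG00000028464, chromosome 4, 43514711 to 43523765, minus strand), the β form, was at 4.50, 2.91 and 3.38 CPM in WT sham and at 4.62, 3.84 and 4.70 CPM in WT IR, and the groups overlapped (log2 fold change 0.28 ± 0.18, adjusted p = 0.273, interval −0.11 to 0.68).

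WT IR 1 was the injured library nearest to the sham mean for Tnnt1, Tnnt2, Tnni3, Tnnc1, Tpm1, Tpm3 and Tpm4, and WT IR 2 was for Tpm2. Its summed fibroblast markers were 1923 CPM, against 3119 and 4831 CPM in WT IR 2 and 3, and its cardiomyocyte markers 63873 CPM, against 54287 and 49460 CPM. Without it 6 of the 8 members passed, Tnnt1, Tnnt2, Tnni3 and Tpm1 lower and Tpm3 and Tpm4 higher, while leaving out WT sham 2, WT sham 3 or WT IR 2 left 0 and leaving out WT sham 1 or WT IR 3 left Tnnt1 alone. Calls over all genes changed across these fits too. The reported fit called 1519 higher and 1340 lower of 13756 genes. Without WT IR 1 the calls were 2543 and 2437 of 13831. Without WT sham 2 they were 226 and 195 of 13790. Scaled to the 18 cardiomyocyte markers, which put the median over all genes at 0.30 in place of 0.01, Tpm2, Tpm3 and Tpm4 were called higher (0.58, 0.55 and 0.67) and no member was called lower.

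**Figure D2:**
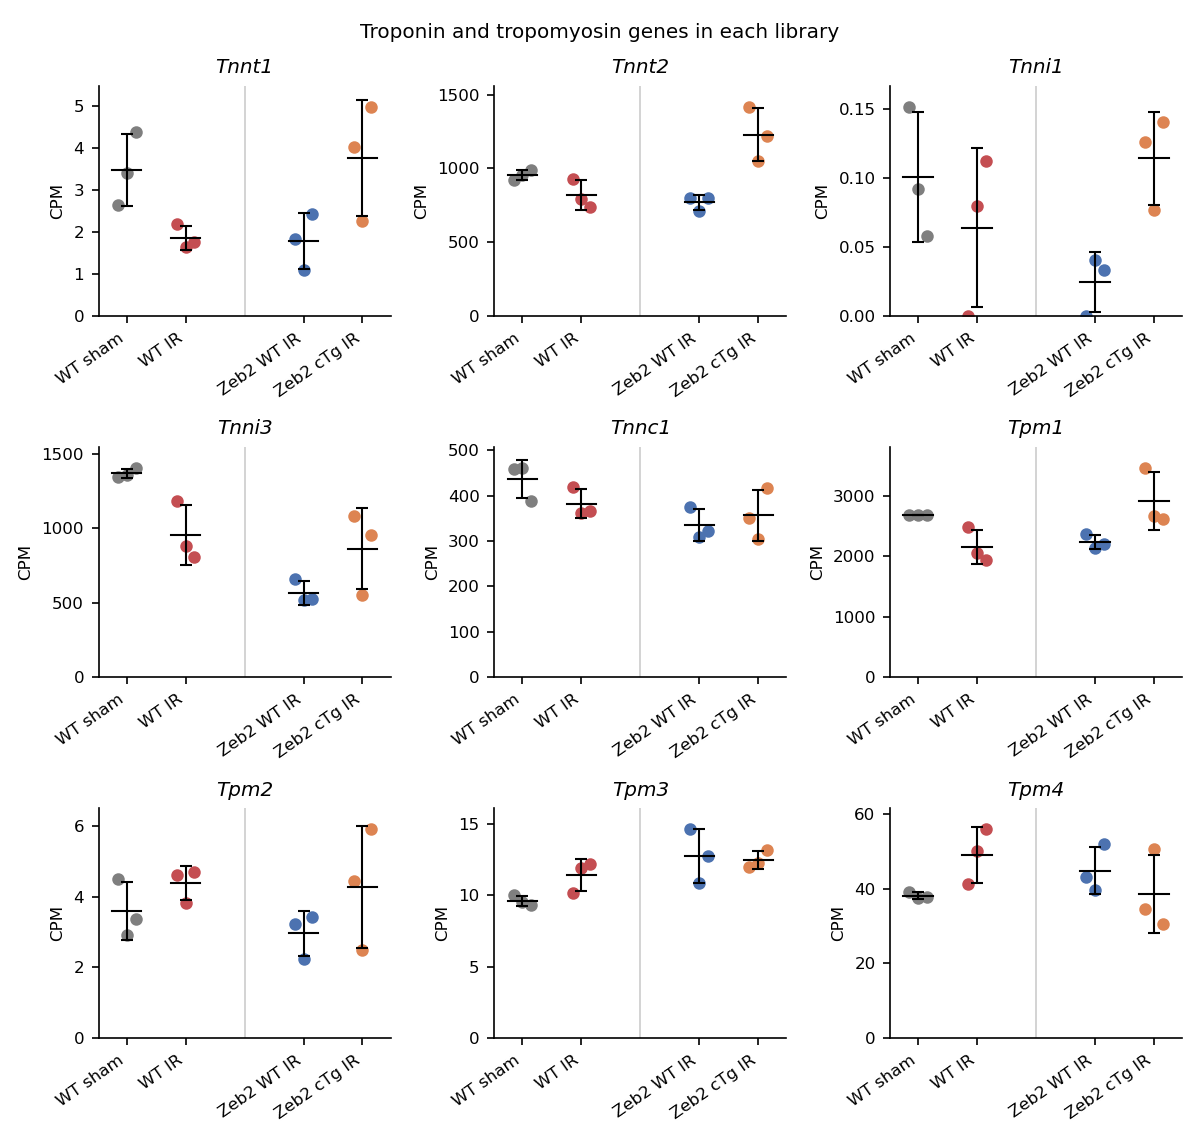
CPM of each member in each library (dots), with the group mean and SD (black), in groups of 3. The 2 tables stand left and right of the grey line and were scaled separately. Tnni3 lies at 1344 to 1408 CPM in WT sham and at 805 to 1182 CPM in WT IR, and Tnnt2 at 712 to 798 CPM in Zeb2 WT IR and at 1052 to 1416 CPM in the libraries under the label Zeb2 cTg IR.

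In the second table, 1 of the 8 members tested passed, Tnnt2, which was higher in the libraries under the label Zeb2 cTg IR. The share called among all 13018 genes was 3.64% (2.14% higher, 1.51% lower). The groups did not overlap for 2 of the 8, against 26.2% of all genes, and the median log2 fold change of the 8 was 0.46 against 0.01 for all genes. Marker sums differed here too, and fibroblast markers summed to 920 to 2104 CPM in Zeb2 WT IR and to 537 to 663 CPM in Zeb2 cTg IR, with 4 of 10 called lower. Cardiomyocyte markers summed to 63544 to 69035 and to 70443 to 74236 CPM, with 1 of 18 called higher (Mybpc3, myosin-binding protein C). Pericyte markers summed to 684 to 813 and 499 to 554 CPM, with 1 of 4 called lower (Abcc9), and endothelial markers to 331 to 367 and 283 to 325 CPM, with 0 of 6 called. Atrial markers summed to 29.7 to 71.1 and 107 to 285 CPM, with 1 of 3 tested called higher (Nppa). Skeletal muscle markers summed to 0.267 to 0.440 and 0.802 to 2.92 CPM, and none was tested. Their part in the members' values was not tested.

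Tnnt2 was at 798, 712 and 798 CPM in Zeb2 WT IR and at 1416, 1052 and 1218 CPM in the libraries under the label Zeb2 cTg IR. Every library labelled Zeb2 cTg IR was above every littermate, and the log2 fold change was 0.68 ± 0.14 (adjusted p = 0.0375, interval 0.35 to 1.00, or 1.60-fold). The call held without Zeb2 cTg IR 2 (0.77, adjusted p = 0.00778) and was lost without any other single library (0.56 to 0.70, adjusted p between 0.0724 and 0.147), and when scaled to cardiomyocyte markers (0.50, adjusted p = 0.144). Tnnt1 was at 1.83, 1.09 and 2.43 CPM in Zeb2 WT IR and at 4.02, 2.25 and 4.97 CPM in Zeb2 cTg IR, from 27 to 177 counts. Zeb2 cTg IR 2 fell among the littermates, and the log2 fold change of 1.06 ± 0.35 did not pass (adjusted p = 0.111, interval 0.28 to 1.84). DESeq2 called it (adjusted p = 0.0390).

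Tnni3 spanned 555 to 1081 CPM in the libraries under the label Zeb2 cTg IR (1081, 555 and 958) against 661, 516 and 526 CPM in Zeb2 WT IR. Library 2 again overlapped the littermates, and the log2 fold change was 0.61 ± 0.23 (adjusted p = 0.154, interval 0.09 to 1.13), or 0.28 with GC correction (adjusted p = 0.256). Tnnc1 was at 374, 308 and 322 CPM in Zeb2 WT IR and at 351, 304 and 416 CPM in Zeb2 cTg IR. These values were interleaved, with a log2 fold change of 0.09 ± 0.15 (adjusted p = 0.732), whose interval of −0.24 to 0.42 still holds changes in both directions, and with GC correction the value was −0.11.

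Tpm1 was at 2375, 2147 and 2199 CPM in Zeb2 WT IR and at 3470.2, 2675 and 2621 CPM in the libraries under the label Zeb2 cTg IR. The groups did not overlap, but the log2 fold change of 0.38 ± 0.15 did not pass (adjusted p = 0.168, interval 0.04 to 0.73). Tpm2 was at 3.23, 2.23 and 3.43 CPM against 4.44, 2.48 and 5.93 CPM (log2 fold change 0.54 ± 0.31, adjusted p = 0.312). Tpm3 was at 14.6, 10.8 and 12.8 CPM against 11.9, 12.2 and 13.1 CPM (−0.03 ± 0.14, adjusted p = 0.904, interval −0.36 to 0.29). Tpm4 was at 43.1, 39.6 and 52.0 CPM against 34.5, 50.7 and 30.7 CPM (−0.22 ± 0.19, adjusted p = 0.510, interval −0.65 to 0.22). With GC correction Tpm2 was 0.25 (adjusted p = 0.548) and Tpm4 −0.10 (0.762), and scaled to cardiomyocyte markers Tpm1 was 0.22 (0.492), Tpm3 −0.19 (0.543) and Tpm4 −0.34 (0.477). Tpm2, Tpm3 and Tpm4 overlapped between groups, and Zeb2 cTg IR 2 was the library with the most Tpm4 and the least Tpm2 of its group.

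Zeb2 cTg IR 2 was the lowest of its group for Tnnt1, Tnnt2, Tnni3, Tnnc1 and Tpm2. Without it, 4 members were called higher (Tnnt1 1.32, Tnnt2 0.77, Tnni3 0.84 and Tpm2 0.80), and without any other single library 0 were. Calls over all genes changed as well. They were 1594 higher and 825 lower of 13314 genes without Zeb2 cTg IR 2, against 278 and 196 of 13018 in the reported fit. The marker sums of Zeb2 cTg IR 2 lay between those of libraries 1 and 3 for cardiomyocytes (71927 CPM, against 74236 and 70443) and fibroblasts (580 CPM, against 537 and 663). They were the lowest of the group for smooth muscle (81.2 CPM, against 119 and 136) and for skeletal muscle (0.802 CPM, against 2.18 and 2.92), and the part of these in the members' values was not tested.

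**Figure D3:**
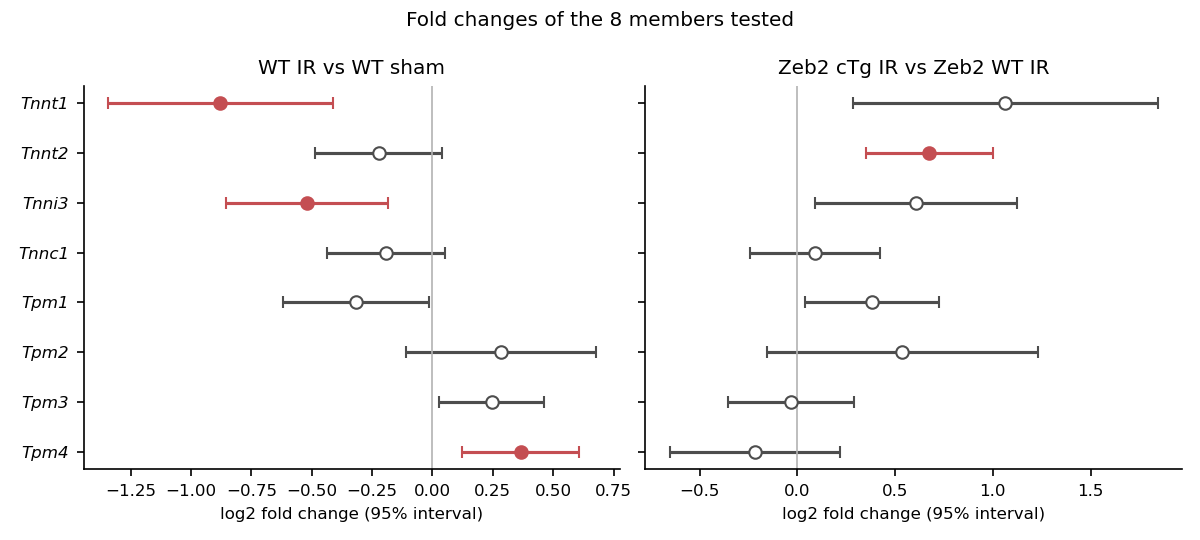
Log2 fold change of the 8 members tested (points) with 95% intervals (bars), WT IR minus WT sham on the left and Zeb2 cTg IR minus Zeb2 WT IR on the right, filled red where the adjusted p was under 0.05. Tnnt1 (−0.88), Tnni3 (−0.52) and Tpm4 (0.37) are red on the left and Tnnt2 (0.68) on the right.

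Ratios of one member to another within a library do not depend on how the libraries were scaled. 9 ratios were tested in each table by a two-sided exact permutation test, in which 3 against 3 cannot go below p = 0.1, or 0.15 after adjustment over the 18, so none could pass. Differences are in log2 of the ratio per kb. In the first table, Tnni3 to Tnnt2 was 192%, 187% and 187% in WT sham and 167%, 147% and 144% in WT IR (difference −0.31, exact p = 0.1). Tnni3 to Tnnc1 differed by −0.35 (exact p = 0.1) and Tnnc1 to Tnnt2 by 0.04, with overlapping libraries (exact p = 0.9). Tnnt1 to Tnnt2 differed by −0.65 (exact p = 0.1), from 0.326% to 0.499% in WT sham to 0.235% to 0.269% in WT IR.

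Each minor tropomyosin stood higher against Tpm1 in all injured wild-type libraries. Tpm4 to Tpm1 was 1.98%, 1.89% and 1.90% in WT sham and 2.25%, 3.31% and 3.91% in WT IR (difference 0.68, exact p = 0.1). The differences were 0.57 for Tpm3 to Tpm1 and 0.63 for Tpm2 to Tpm1 (exact p = 0.1 each), and 0.11 for Tpm4 to Tpm3 (exact p = 0.1). Tpm1 to Tnnt2, the cardiac rod against cardiac troponin T, changed least among the ratios whose groups did not overlap (−0.09, exact p = 0.1).

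In the second table the groups did not overlap for Tnnc1 against either of the other cardiac troponin subunits. Tnnc1 to Tnnt2 was 78.0%, 72.1% and 67.2% in Zeb2 WT IR and 41.2%, 48.1% and 56.8% in the libraries under the label Zeb2 cTg IR (difference −0.58, exact p = 0.1). Tnni3 to Tnnc1 was 140%, 132% and 129% in Zeb2 WT IR and 244%, 144% and 182% in Zeb2 cTg IR (difference 0.48, exact p = 0.1). Its groups came close to overlap through Zeb2 cTg IR 2. Tpm1 to Tnnt2 differed by −0.29, without overlap (exact p = 0.1), while Tnni3 to Tnnt2 overlapped (−0.11, exact p = 0.8). Tpm3 to Tpm1 was lower in every library labelled Zeb2 cTg IR (−0.40, exact p = 0.1). Tpm4 to Tpm1 was 2.46%, 2.50% and 3.21% against 1.35%, 2.57% and 1.59%, overlapping through library 2 (−0.61, exact p = 0.3). Tpm2 to Tpm1 (0.10, exact p = 1), Tnnt1 to Tnnt2 (0.40, exact p = 0.5) and Tpm4 to Tpm3 (−0.22, exact p = 0.5) overlapped as well. The 2 tables use separate animals and controls, and no test of the difference between their contrasts was made.

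**Figure D4:**
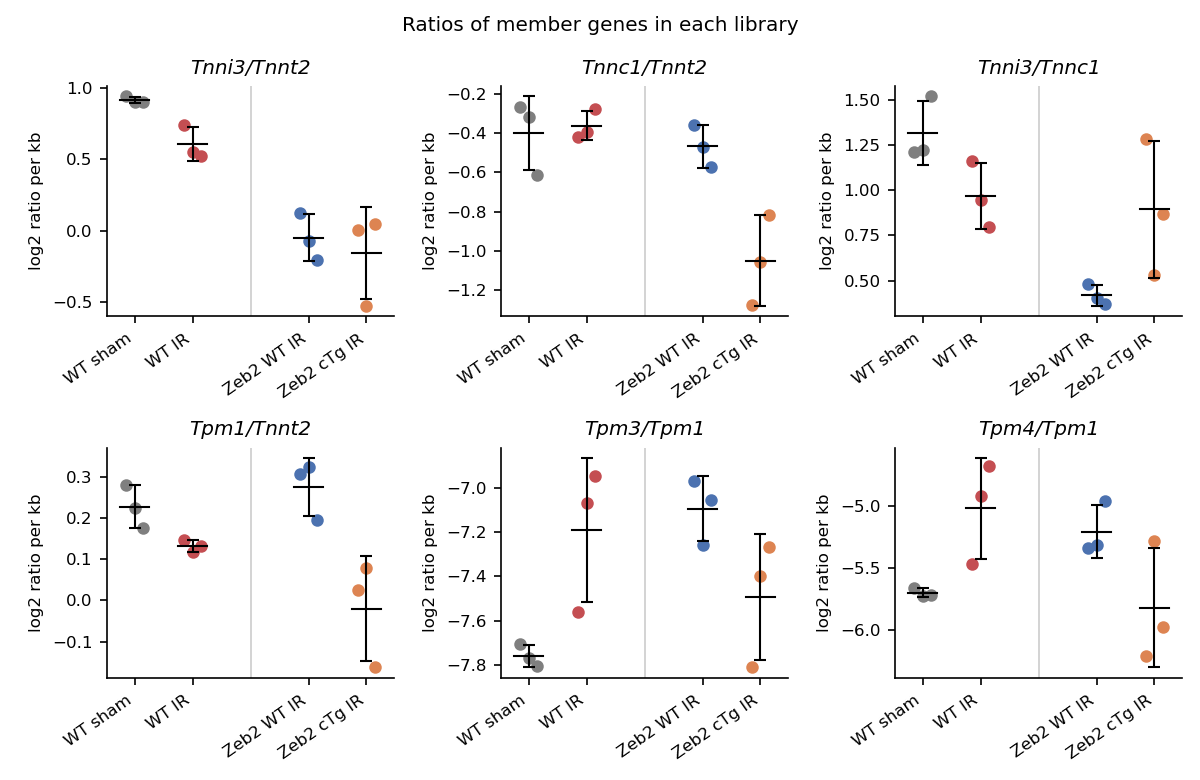
Log2 ratio per kb of 6 pairs of members in each library (dots), with group means and SD (black). Tnni3 to Tnnt2 lies at 0.90 to 0.94 in WT sham and at 0.52 to 0.74 in WT IR, and Tnnc1 to Tnnt2 at −0.57 to −0.36 in Zeb2 WT IR and at −1.28 to −0.82 in the libraries under the label Zeb2 cTg IR.

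Genes that act on the thin filament gave a wider view. Of 23 tested genes for actins and filament length, 5 were higher and 5 lower in WT IR (11.0% and 9.74% of all genes were, and the list had a median log2 fold change −0.06 against 0.01 for all genes). The 6 with the smallest p were Neb (nebulin, −1.08 ± 0.18, adjusted p = 0.00630), Tmod2 (a tropomodulin, which caps the pointed end, 0.98 ± 0.18, 0.00890), Xirp2 (0.62 ± 0.14, 0.0149), Xirp1 (−0.43 ± 0.10, 0.0160), Acta2 (smooth muscle actin, −0.57 ± 0.13, 0.0163) and Tmod3 (0.42 ± 0.10, 0.0177). Of these 6, Neb alone kept its call without each single library in turn. Scaled to cardiomyocyte markers, Acta2 (−0.28, adjusted p = 0.0749) and Xirp1 (−0.14, 0.215) were not called, and with GC correction Tmod3 was not (0.24, 0.0849). In the libraries under the label Zeb2 cTg IR, 4 of the 23 were higher and 2 lower, where 2.14% and 1.51% of all genes were (median 0.07). Acta2 rose by 1.67 ± 0.20 on the log2 scale, from 16.9 ± 3.21 to 53.9 ± 12.7 CPM (adjusted p = 0.00463), and was called without each library in turn. Cap2 (0.74 ± 0.12), Neb (1.88 ± 0.36) and Capzb, a subunit of the barbed-end cap (0.50 ± 0.11), were higher, and Xirp2 (−0.96 ± 0.19) and Acta1, skeletal actin (−2.29 ± 0.53), were lower, with adjusted p of 0.0133, 0.0268, 0.0359, 0.0283 and 0.0496. Out of 6 fits without a library, Cap2 was called in 4, Neb in 3, Xirp2 and Acta1 in 2 and Capzb in 1, and the value was 1.23 for Neb without Zeb2 cTg IR 2 and −1.51 for Acta1 without Zeb2 WT IR 3. Scaled to cardiomyocyte markers, Acta2 and Acta1 were called and these other 4 were not (adjusted p between 0.0588 and 0.303). The summed smooth muscle markers, of which Acta2 is 1 of 8, were 52.8 to 79.8 CPM in Zeb2 WT IR. In Zeb2 cTg IR they were 81.2 to 136 CPM. Their means were 64.3 and 112 CPM, so most of the difference in this sum was Acta2 itself. Acta2 was the 1 marker called of 6 tested. Myh11, a defining marker of smooth muscle, differed by 0.20 (adjusted p = 0.545). Actin genes are alike in sequence, and reads they share can be assigned to either.

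Of 12 kinases and phosphatases that act on thin filament proteins, 2 were called higher and 2 lower in WT IR, where 11.0% and 9.74% of all genes were. Pak1 (1.74 ± 0.41, adjusted p = 0.0183) and Prkcd (0.62 ± 0.17, 0.0317) were higher. Prkaca, a catalytic subunit of the kinase that phosphorylates troponin I (−0.36 ± 0.08, 0.0169), and Prkce (−0.37 ± 0.11, 0.0454) were lower. Prkacb, another catalytic subunit of that kinase, was not called (0.11 ± 0.07, adjusted p = 0.269). Each of these 4 calls was lost without at least 1 library, and those of Prkaca (−0.07, adjusted p = 0.515) and Prkce (−0.10, 0.475) also when scaled to cardiomyocyte markers. In the second table edgeR called 0 of the 12, where 3.64% of all genes were called. DESeq2 and limma-voom called 0, and the GC correction called 1 (Ppp1cc at 0.45, adjusted p = 0.0388). In the edgeR fit, 3 of the 12 had an unadjusted p under 0.05. The 3 were Ppp1cc (0.42, adjusted p = 0.101), Prkaca (0.36, 0.135) and Ppp1ca (0.34, 0.173), and the next were Ppp1cb (−0.29, 0.288), Pak1 (−0.61, 0.290) and Ppp2ca (−0.23, 0.319).

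Splicing shapes the isoforms of troponin T and tropomyosin, which gene counts do not resolve. Of 13 splicing regulators of muscle transcripts, 1 was called in WT IR, where 20.8% of all genes were called. It was Mbnl1 (0.29 ± 0.09, adjusted p = 0.0473), and with GC correction it was not called (0.09, adjusted p = 0.449). In the second table edgeR called 0 of 13, against 3.64% of all genes. An unadjusted p under 0.05 was reached by 2, Rbfox1 (−0.59, adjusted p = 0.0579) and Rbm20 (0.47, 0.0648). DESeq2 called both, and limma-voom and the GC correction called 0. Next came Rbm24 (0.31, 0.261), Ptbp1 (0.30, 0.307), Mbnl1 (−0.22, 0.322) and Qk (−0.22, 0.391).

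Of 15 muscle transcription factors, 7 were lower and 0 higher in WT IR, where 9.74% of all genes were lower and 11.0% higher. The list had a median of −0.32, against 0.01 over all genes. The 6 with the smallest p were Nkx2-5 (−1.30 ± 0.19, adjusted p = 0.00407), Hand2 (−0.77 ± 0.11, 0.00448), Myocd, a partner of Srf (−0.66 ± 0.12, 0.00795), Gata4 (−0.46 ± 0.09, 0.00904), Srf (−0.60 ± 0.13, 0.0129) and Tead1, a reader of the M-CAT core (−0.32 ± 0.08, 0.0218). Nkx2-5 and Hand2 were called without each library in turn. With GC correction Nkx2-5 was −0.67 (adjusted p = 0.0185) and Srf was not called (−0.14, 0.361). Scaled to cardiomyocyte markers, Gata4 (−0.17, adjusted p = 0.238) and Tead1 (−0.03, 0.824) were not called, and Hand2 was −0.48 and Myocd −0.38. In the libraries under the label Zeb2 cTg IR, Nkx2-5 was higher (1.94 ± 0.40, from 1.15 ± 0.424 to 4.41 ± 2.00 CPM, adjusted p = 0.0346) and Tead1 was lower (−0.71 ± 0.12, from 66.2 ± 2.48 to 40.4 ± 4.28 CPM, 0.0166). Leaving out single libraries ended each of these calls in at least 1 of 6 fits. With GC correction Nkx2-5 was 1.13 (adjusted p = 0.0107), and scaled to cardiomyocyte markers Tead1 was not called (−0.86, 0.0599).

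Members moved with one another to different degrees across the 12 libraries, each centred on its table's mean in log2 CPM. These correlations share depth and cell mixture, may share the trend with GC content, and are given as a description. They were not recomputed with GC correction. Tnnt2 followed Tpm1 (r = 0.90) and Tnni3 (0.86), and both were similar with group means removed (0.87 and 0.90). Tnni3 ran opposite to Tpm4 (r = −0.88, and −0.83 with group means removed). Tnnc1 was looser with Tnnt2 (0.47) and Tpm1 (0.49) than with Tnni3 (0.74). Among 12790 other genes, the 3 most like Tnni3 were Etfb, Ndufs7 and D10Jhu81e (r = 0.99 each), the first a subunit of the electron transfer flavoprotein and the second of complex I. The 3 most like Tnnt2 were Phkg1, Hspb2 and Atp5j2 (0.97 each). For Tpm4 they were Hif1a, Cd44 and Spred1 (0.95 each), the first the oxygen-regulated transcription factor subunit and the second a receptor for hyaluronan. For Tnnt1 they were Atg16l2, Mrpl38 and Dnajc11 (0.96, 0.96 and 0.95).

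**Figure D5:**
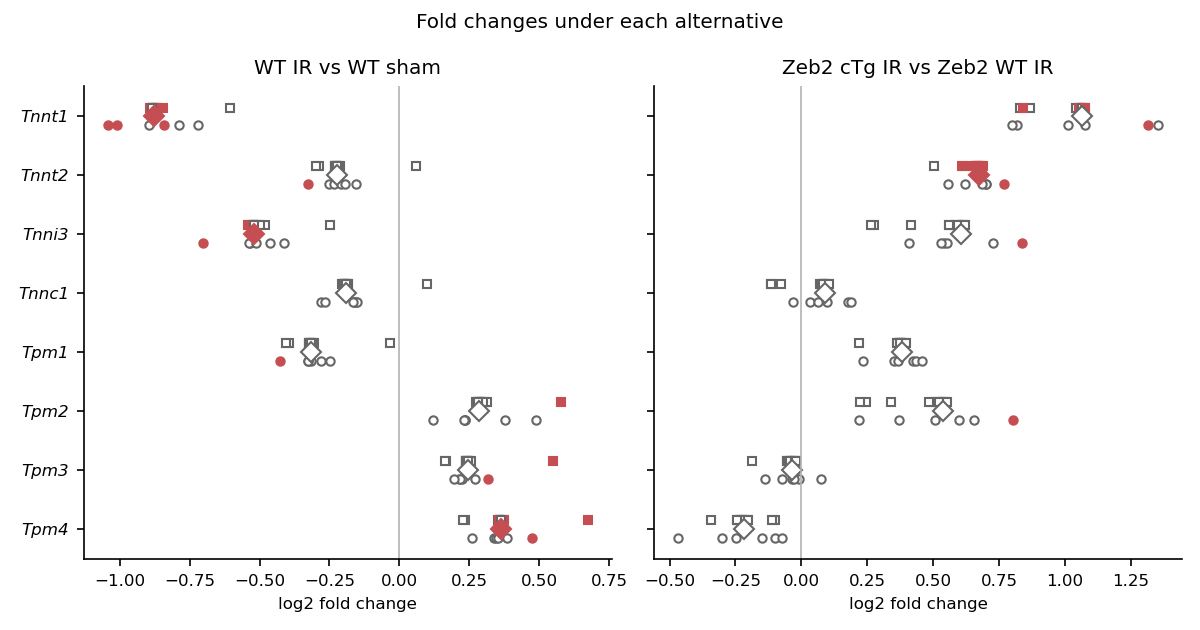
Log2 fold change of each member in the reported fit (diamonds), under 12 other settings or tools (squares, upper) and without each library in turn (circles, lower), red where the adjusted p was under 0.05. Tnnt1 and Tnni3 stay below 0 and Tpm4 above 0 throughout the left panel, Tnnt2 stays above 0 throughout the right panel, and Tnnc1 crosses 0 in both.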

How the data were processed

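RNA was extracted from the left ventricle with TRIzol (per the labels), and 12 libraries were made, 3 animals in each of 4 groups. The labels name a stranded mRNA kit and the methods a stranded total RNA kit. The authors deposited 2 tables of raw read counts per gene, 1 for each comparison, made with STAR 2.4.2a and HTSeq 0.6.1 on mm10 per the submitters' processing notes, with GENCODE M4 genes per the methods. How HTSeq was set for strand and for reads matching several genes is not given in the sources used here.

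Symbols, positions and lengths came from GENCODE M21 (GRCm38), which named 36345 of 38293 IDs. The members and gene lists were chosen with earlier results of these data known. Each table was filtered with filterByExpr (minimum count 10, minimum total 15), TMM-scaled and fitted with edgeR 4.0.16 (R 4.3.3) by its quasi-likelihood test, with Benjamini-Hochberg adjustment over all genes tested and a threshold of 0.05. Intervals are 95%. All 9 members were named, with, of each list, the genes past the threshold or, where none or over 6 passed, up to 6 with the smallest p, and the 3 genes most correlated (log2 CPM, prior count 2) with each member called. Zeb2 checked the labels. Ratios were tested by exact permutation over libraries. No 2 libraries were identical. Counting error alone limits genes near 3 counts. Alternatives were other size factors, filters, GC correction (loess span 0.5), a replicate block, DESeq2 1.42.0, limma-voom 3.58.1, 1 fit of all 12 libraries and leaving out each library. The fits were tested on simulated data.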

Additional observations from a re-analysis of the deposited data

How the results depend on the processing

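In the first table the count of members called was 3, and it was 1 with GC correction, 1 with the replicate block and GC correction, 0 in 1 fit of all 12 libraries, and 0 to 6 without each library in turn. In the second table the count was 1, and it was 0 when scaled to cardiomyocyte markers, 3 without a filter on low counts, 3 with the replicate block, 2 with the block and GC correction, 2 with DESeq2, 2 in 1 fit of all 12 libraries, and 0 to 4 without each library in turn. The cause was not tested. Fold changes that turned were, scaled to cardiomyocyte markers, Tnnt2 (0.058) and Tnnc1 (0.10) in the first table and Tnnc1 (−0.079) in the second, and there Tnnc1 also with GC correction (−0.11) and with the block and GC correction (−0.12). Without each library in turn Tnnc1 ran from −0.031 to 0.19 and Tpm3 from −0.14 to 0.074 in the second table. The difference in Tnni3 to Tnnt2 in the first table was −0.20 with GC correction. Log2 fold changes ran with GC content across genes (Spearman −0.29 in the first table and 0.55 in the second).

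Over all genes, the 2859 calls of the first table (1519 higher, 1340 lower) became 3937 higher and 294 lower when scaled to cardiomyocyte markers, 1184 higher and 1588 lower with GC correction, and 950 and 474 in 1 fit of all 12 libraries. The 474 calls of the second (278 higher, 196 lower) became 122 and 191, 477 and 359, and 1265 and 667 in these fits, and 671 and 425 with DESeq2. With the cardiomyocyte marker scaling, the median over all genes in the second table was −0.16. Leaving out single libraries moved these counts as well. In the first table they ran from 226 higher and 195 lower (without WT sham 2) to 2543 and 2437 (without WT IR 1). In the second they ran from 50 and 48 (without Zeb2 WT IR 3) to 1594 and 825 (without Zeb2 cTg IR 2).

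Replicate numbers were shared between groups, but the animals differed. Deviations from the group means correlated at −0.03, 0.01 and −0.01 in the first table and 0.13, 0.26 and −0.04 in the second. So few values cannot show whether the numbers mark a shared batch, which was not tested. With the replicate block 2 members were called in the first table (Tnnt1 and Tnni3, while Tpm4 was not, adjusted p = 0.0543) and 3 in the second (Tnnt1, Tnnt2 and Tnni3), and the genes called numbered 1395 higher and 1200 lower, and 1164 higher and 649 lower. Depth limits Tnni1, with at most 5 counts, and leaves Tnnt1 with 27 to 177.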

Other observations

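Counts of Tpm3-rs7, Actg1 and Ppp1cc differed widely between the 2 tables. Tpm3-rs7 held 59 to 137 counts in every library of the first table and 0 to 3 in every library of the second, although Tpm3 itself was at 9.31 to 12.2 CPM and 10.8 to 14.6 CPM. Actg1, cytoplasmic γ-actin, was at 5.61 ± 1.12 CPM in WT sham, 3.67 ± 0.870 CPM in WT IR and 14.0 ± 2.68 CPM in Zeb2 WT IR. In the same groups Ppp1cc was at 1.78 ± 0.328, 1.54 ± 0.179 and 9.28 ± 0.775 CPM (SD, n = 3). These genes were picked after their values were seen, and the tables were scaled separately. Whether the tables were counted alike was not tested.

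Nppa, the atrial natriuretic peptide gene, was called higher in both comparisons (log2 fold change 3.57 and 2.43), while the atrial genes Myl7 and Sln held at most 3 and 1 counts in the first table. In the second, Myl7 reached 39 counts and Sln 7, both under the label Zeb2 cTg IR, against 0 in their lowest libraries.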
